A study of Homo sapiens with 6 samples.

Results

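The transcripts described here are the 49 transcripts, in 43 genes, that GENCODE 29 annotates as nonsense-mediated decay (NMD) and for which the deposited table gives an expression value. They were chosen by that annotation alone, from 62250 transcripts with FPKM (fragments per kilobase of transcript, scaled to library size). RNA came from NALM6, an established human cell line derived from acute lymphoblastic leukemia of B-cell precursors, grown in RPMI medium with serum. One group of 3 libraries was kept for 48 h with verteporfin, a porphyrin photosensitizer also used as an inhibitor of YAP and TEAD in the Hippo pathway, at 0.6 mmol/L as the labels print it. The other group of 3 libraries had DMSO, the solvent, and both groups were the unmodified line. Whether libraries of a group stem from separate cultures is not stated, so the spread behind each p-value may be technical.

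NMD is a surveillance pathway that degrades messenger RNAs whose reading frame stops too early. When introns are removed, a protein complex is left just upstream of each exon junction, and a ribosome that stops well before the last of these marks lets the helicase UPF1 recruit nucleases. Alternative splicing makes such transcripts from many genes, and because they are degraded, what is measured is the amount left in balance between synthesis and decay.

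Few annotated NMD transcripts were listed at all. GENCODE 29 holds 15283 of them, of which 0.321% had FPKM here, against 40.6% of 83064 protein-coding transcripts, 56.4% of 28087 retained-intron transcripts and 32.3% of 28589 processed transcripts. The 49 are therefore a small remainder and not a sample of the class. For 21 of them the deposited identifier carried the same version number as GENCODE 29 and for 28 another version, so the annotated structure may differ from the one the authors measured for those 28. A transcript was listed where its mean reached 0.5 FPKM in at least 1 group: 31 reached it in both groups, 13 in verteporfin alone and 5 in DMSO alone.

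SLC50A1, MRM2 and AC093323.1 show what the annotation means, and the ends of reading frames are given for SLC50A1 and AC093323.1 because their transcripts lead the results below. SLC50A1 encodes a sugar transporter of the SWEET family and has 3 listed NMD transcripts on chromosome 1, plus strand: SLC50A1-204 at chr1:155135859-155138851, SLC50A1-210 at chr1:155135867-155138440 and SLC50A1-211 at chr1:155135828-155138415. Their coding sequences were identical to that of the protein-coding SLC50A1-203 (chr1:155135850-155138853) for the first 158, 158 and 159 bases and then ended after 168, 162 and 192 bases in all, while that of SLC50A1-203 ran for 666 bases. The coding sequences from base 121, as GENCODE 29 gives them on GRCh38 and written 5′ to 3′ with the stop codon in capitals, are these.
SLC50A1-204: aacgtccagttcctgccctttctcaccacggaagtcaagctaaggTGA
SLC50A1-210: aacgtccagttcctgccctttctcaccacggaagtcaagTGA
SLC50A1-211: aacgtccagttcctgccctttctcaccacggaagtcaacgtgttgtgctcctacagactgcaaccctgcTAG
SLC50A1-203: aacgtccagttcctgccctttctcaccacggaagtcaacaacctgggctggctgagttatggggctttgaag
MRM2, a methyltransferase of mitochondrial ribosomal RNA, has the NMD transcript MRM2-205 at chr7:2234295-2242189, minus strand. It shared its first 300 coding bases with the protein-coding MRM2-201 (chr7:2234291-2242198) and stopped after 468 bases, where MRM2-201 ran for 741.
AC093323.1, a gene that GENCODE 29 names only by a clone, differs from both. The frame of its NMD transcript AC093323.1-204 (chr4:6674088-6676047, plus strand) was identical over all 360 coding bases to that of its protein-coding transcript AC093323.1-203. There the annotation rests on what follows the same stop codon, shown in capitals at the end of coding bases 301 to 360.
AC093323.1-204: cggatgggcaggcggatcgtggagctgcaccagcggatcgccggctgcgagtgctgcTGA

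Across the 49 transcripts the stop codon lay 65 to 3146 bases before the last exon junction, with a median of 437. In 17 of them 1 junction followed the stop codon, and in 32 more than 1 did, up to 19 in AC093668.2-201. Of the 135 listed protein-coding transcripts of the same genes, 116 were spliced and had an annotated stop codon. It lay in the last exon in 102 of these and more than 50 bases before the last junction in 1. Distance to the last junction is part of how the annotation is made, so these values describe the class. NMD transcripts were 333 to 8242 bases long (median 1038), and in 22 the annotated coding sequence lacked its start.

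NMD transcripts made up a small part of the RNA of their genes, and the groups overlapped. Their summed FPKM was 111, 99.8 and 110 in the DMSO libraries and 134, 96.0 and 102 in the verteporfin libraries, out of 408300 to 464500 FPKM listed per library. As a share of the summed FPKM of the 43 genes this was 6.39%, 4.64% and 5.78% in DMSO and 7.32%, 4.04% and 5.15% in verteporfin. The means were 5.60% ± 0.888 and 5.50% ± 1.67 (SD, n = 3 each; 2-sided exact permutation test, p = 1). The share of all listed FPKM was 0.0253% ± 0.000978 with DMSO and 0.0253% ± 0.00308 with verteporfin (SD, n = 3 each; exact permutation p = 1). Groups of 3 libraries cannot give a p below 0.1, and these bulk samples cannot tell fewer cells with a transcript from less of it per cell.

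The protein-coding transcripts of the same genes took 64.1%, 63.9% and 64.0% of the genes' FPKM in DMSO and 68.8%, 69.7% and 65.2% in verteporfin. All 3 verteporfin libraries lay above all 3 DMSO libraries, at 67.9% ± 2.35 against 64.0% ± 0.134 (SD, n = 3 each; exact permutation p = 0.1, the smallest possible, and 0.2 adjusted over 4 measures). RPL11 weighs heavily here, with protein-coding sums of 293, 431 and 335 FPKM in DMSO and 492, 600 and 474 in verteporfin. With RPL11 taken out of the sums, the groups overlapped in this share. Of the 49 NMD transcripts, 45, 48 and 45 were above 0 in the verteporfin libraries and 38, 36 and 36 in the DMSO libraries. This count was among the 4 measures tested (exact permutation p = 0.1, 0.2 adjusted). It is read as a description only, because listing shapes it. Of the 49, 13 were listed through verteporfin alone and 5 through DMSO alone. A transcript listed through 1 group must be above 0 in at least 1 of its libraries. The same libraries also differed in this way over all listed transcripts, of which 14.0%, 14.5% and 18.7% stood at 0 in DMSO and 11.4%, 5.23% and 7.91% in verteporfin. The part of that difference in the count of NMD transcripts was not tested.

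**Figure D1:**
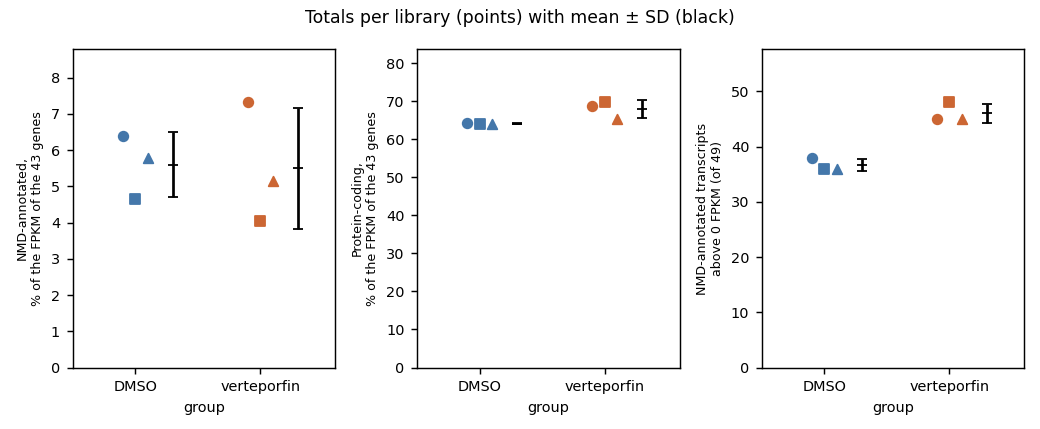
Totals per library in the DMSO and verteporfin groups: the percent of the summed FPKM of the 43 genes in NMD transcripts (left) and in protein-coding transcripts (middle), and the number of the 49 NMD transcripts above 0 FPKM (right). Points are libraries (circle, square and triangle for replicates 1 to 3) and black bars are mean ± SD; the left groups overlap, while in the middle and right panels every verteporfin library lies above every DMSO library. RPL11 weighs heavily in the middle panel, and without it those groups overlap. The right panel is a description, since 13 of the 49 were listed through verteporfin alone and 5 through DMSO alone.

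No NMD transcript passed the test. Single transcripts were tested with limma on log2(FPKM + 1) where their mean over the 6 libraries was at least 0.5 FPKM, which 39 of the 49 passed; of the other 10, 8 had been listed through verteporfin and 2 through DMSO. Of the 39, 0 had an adjusted p under 0.05, beside 0.0307% of all 55388 transcripts tested. An unadjusted p under 0.05 was found for 5 of them (12.8%), beside 6.55% of all transcripts tested; 2 were higher with verteporfin, beside 3.57%, and 3 lower, beside 2.98%. The smallest adjusted p was 0.648. Levels of the 3 verteporfin and the 3 DMSO libraries did not overlap for 8 of the 39 (20.5%), beside 12.3% of all transcripts tested. Of these, 3 were higher, beside 5.46%, and 5 lower, beside 6.81%. Listing shapes these counts and those of unadjusted p. Among the higher ones, ADAM17-204 and AC015813.2-201 were listed through verteporfin alone, with DMSO means of 0.282 and 0.322 FPKM, so their direction is no separate result. The log2 fold change (verteporfin minus DMSO) ran from -1.47 to 2.13 with a median of 0.02, above 0 in 21 transcripts and below in 18. The 125 protein-coding transcripts tested in the same genes had a median of 0.10, with 0 called and an unadjusted p under 0.05 in 14 (11.2%), and all transcripts tested had a median of 0.00075.

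**Figure D2:**
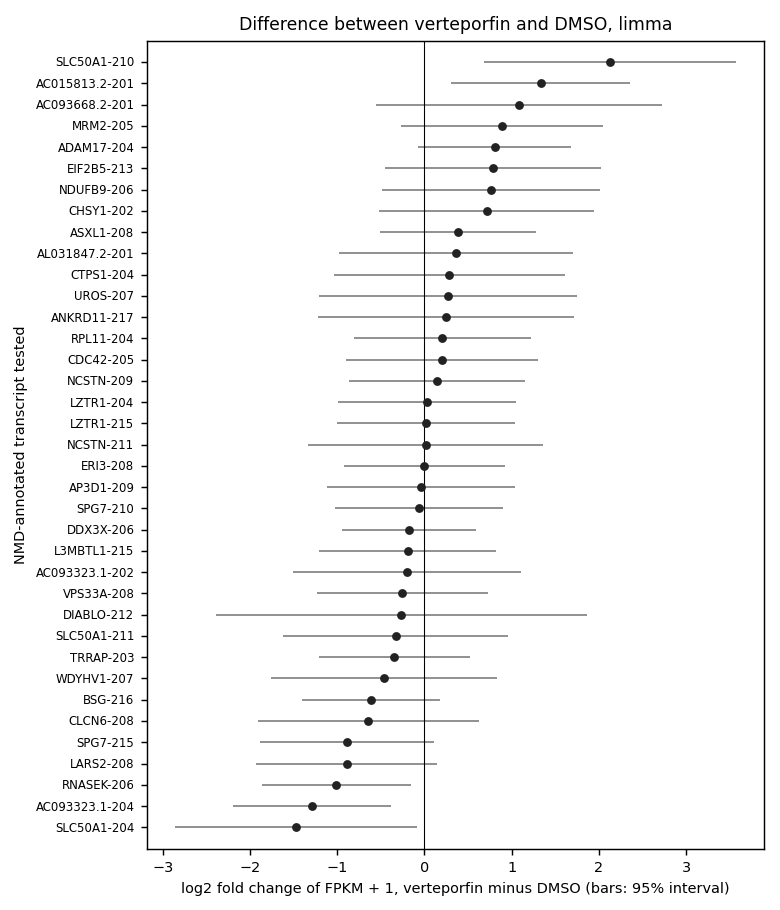
Log2 fold change of FPKM + 1 (verteporfin minus DMSO) with its 95% interval from limma, for the 37 tested NMD transcripts listed above 0 in both groups, one row each. Intervals of SLC50A1-210 and AC015813.2-201 lie above 0 and those of RNASEK-206, AC093323.1-204 and SLC50A1-204 below it before adjustment, and the others cross 0. AC015813.2-201 was listed through verteporfin alone.

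The share of a transcript in its gene, which is free of changes of the whole gene, gave no call either. It was tested on an arcsine square root scale for 36 of the 49. None was called, beside 0.0198% of 50495 shares tested, and the smallest adjusted p was 0.809. An unadjusted p under 0.05 was found for 2 (5.56%, beside 5.87% of all shares), SLC50A1-204 and SLC50A1-210. Shares of the groups did not overlap for 3 of the 36 (8.33%, beside 11.4% of all shares), which were the same pair and ADAM17-204. The ratio of NMD to protein-coding FPKM could be formed for 40 genes, since AC093668.2, AL031847.2 and AC015813.2 had no listed protein-coding transcript. It was called for 0 of the 40 with limma, 0.0% of those tested, and 0 had an unadjusted p under 0.05. The log2 fold change of the ratio had a median of 0.16 and was above 0 in 24 genes and below in 16.

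In most genes the NMD transcripts stood far below the protein-coding ones. Their mean share of the gene's FPKM was 5.14% at the median gene of the 40 and under 10% in 28, from 0.704% in NDUFB9, a subunit of respiratory complex I, to 74.1% in AC093323.1. The mean NMD level was above the mean protein-coding level in 4 genes. In AC093323.1 it was 20.9 FPKM against 7.31, in SLC50A1 11.8 against 8.84, in MRM2 10.0 against 4.02, and in L3MBTL1, a reader of methylated histone lysines, 1.43 against 0.726. RPL11, a protein of the large ribosomal subunit, had the highest protein-coding level of the 40, at 437 FPKM, with 10.7 FPKM of NMD transcript.

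**Figure D3:**
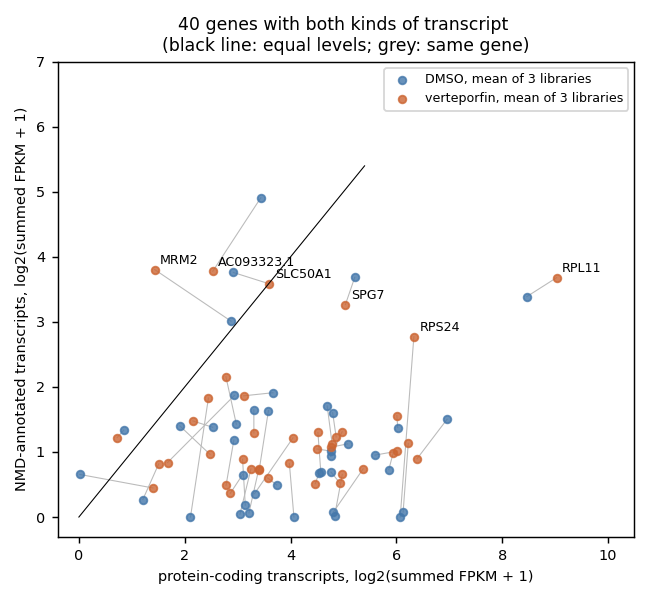
Mean level of NMD transcripts (vertical) against protein-coding transcripts (horizontal) of the 40 genes that have both, as log2(summed FPKM + 1), with one point per gene and group and grey lines joining the same gene. Most genes lie well below the black line of equal levels. MRM2, AC093323.1 and, at a low level, L3MBTL1 lie above it in both groups. SLC50A1 lies above it in DMSO and close to it in verteporfin, and SERAC1, also at a low level, lies above it in DMSO alone.

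Among genes of the cell surface, SLC50A1 held a pair of NMD transcripts whose levels differed between groups in opposite directions, though neither passed the test after adjustment. SLC50A1-204 stood at 13.5, 8.98 and 5.037 FPKM in DMSO and 5.005, 0.574 and 3.34 in verteporfin. All verteporfin values were below all DMSO values, by a narrow margin between verteporfin replicate 1 and DMSO replicate 3. Its log2 fold change was -1.47 (95% interval -2.86 to -0.08; limma, unadjusted p = 0.0402, adjusted p = 0.759). SLC50A1-210 was near 0 in DMSO, at 0.136, 0 and 1.40 FPKM, and stood at 12.6, 4.66 and 1.97 in verteporfin. The groups again did not overlap, and verteporfin replicate 1 stood far above the other libraries. Its log2 fold change was 2.13 (0.68 to 3.58; limma, unadjusted p = 0.00940, adjusted p = 0.648).

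As a share of SLC50A1, SLC50A1-204 had 59.7%, 26.8% and 25.9% of the gene in DMSO and 18.4%, 2.08% and 12.6% in verteporfin. SLC50A1-210 had 0.602%, 0% and 7.18% in DMSO and 46.3%, 16.9% and 7.42% in verteporfin, so the groups were separated by a small gap between DMSO and verteporfin replicates 3. Neither share passed limma after adjustment (adjusted p = 0.809 and 0.812). The third, SLC50A1-211, overlapped between groups at 3.01, 5.13 and 0.447 FPKM in DMSO and 1.77, 1.23 and 1.88 in verteporfin. The 3 NMD transcripts summed to 16.7, 14.1 and 6.88 FPKM in DMSO and 19.4, 6.46 and 7.19 in verteporfin, which overlap. The 4 protein-coding transcripts summed to 4.56, 9.32 and 5.83 FPKM in DMSO and 3.99, 14.7 and 14.7 in verteporfin, and the whole gene had a log2 fold change of 0.14 (-0.50 to 0.78; limma, adjusted p = 0.928). The 3 NMD transcripts share 158 or 159 of their 162 to 192 coding bases with SLC50A1-203, whose own frame runs on to 666, and how the authors' software divided reads between them was not analysed here.

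**Figure D4:**
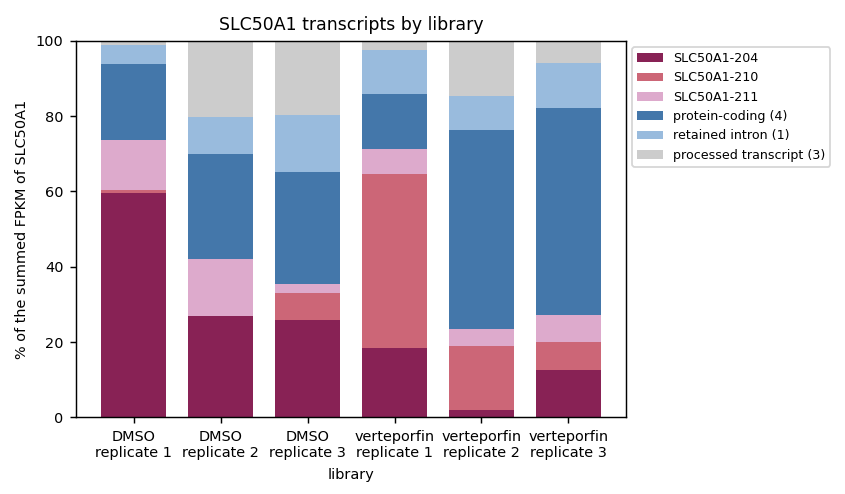
Percent of the summed FPKM of SLC50A1 in each of its 3 NMD transcripts and in its protein-coding, retained-intron and processed transcripts, one bar per library (the number of transcripts is in brackets). SLC50A1-204 takes 25.9% to 59.7% of the DMSO bars and 2.08% to 18.4% of the verteporfin bars, while SLC50A1-210 is widest in verteporfin replicate 1.

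ADAM17, the protease that sheds TNF and many other surface proteins, had 1 NMD transcript at a low level. ADAM17-204 stood at 0.286, 0.380 and 0.181 FPKM in DMSO and 0.497, 1.84 and 1.64 in verteporfin, without overlap. Its log2 fold change was 0.81 (-0.07 to 1.68; limma, adjusted p = 0.759). The protein-coding ADAM17-201 stood at 6.82, 11.4 and 8.77 FPKM in DMSO and 7.98, 17.9 and 20.7 in verteporfin. The ratio of the 2 kinds had a log2 fold change of 0.15 (-0.83 to 1.14), where the 1 FPKM added to each sum weighs heavily. As a share of its gene ADAM17-204 had 3.51%, 3.23% and 1.55% in DMSO and 5.87%, 7.92% and 6.14% in verteporfin, without overlap (limma, adjusted p = 0.828). ADAM17-204 was listed through verteporfin alone, which bears on its direction. BSG-216, of the surface glycoprotein basigin, was at 1.99, 1.89 and 1.63 FPKM in DMSO and 0.979, 0.574 and 1.03 in verteporfin. Those values did not overlap either, and the adjusted p was 0.784 in limma. The share of BSG-216 in its gene overlapped, at 1.08% to 1.47% in DMSO and 0.637% to 1.57% in verteporfin. The whole gene had a log2 fold change of -0.74 (-1.58 to 0.11). The pair from NCSTN, the gamma-secretase subunit nicastrin, overlapped between groups, with NCSTN-209 at 0.548 to 2.15 FPKM in DMSO and 0.644 to 2.14 in verteporfin.

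Genes of the mitochondrion held 9 of the 49 NMD transcripts, in 8 genes. Together they summed to 30.8, 19.7 and 21.5 FPKM in DMSO and 27.7, 30.9 and 20.2 in verteporfin, which overlap, and 4 had a higher and 5 a lower mean with verteporfin. MRM2-205 was the most abundant. It stood at 12.3, 4.78 and 4.14 FPKM in DMSO and 13.6, 16.7 and 8.70 in verteporfin, where DMSO replicate 1 lay within the verteporfin range. Its log2 fold change was 0.89 (-0.27 to 2.05; limma, adjusted p = 0.785). As a share of MRM2 it took 50.5%, 20.2% and 29.8% in DMSO and 52.8%, 78.9% and 37.3% in verteporfin. The protein-coding MRM2-203 was listed at 15.3 FPKM in DMSO replicate 2 and at 0 to 0.0216 in the other 5 libraries, so the low share of MRM2-205 in that library went with 1 other transcript.

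SPG7, which encodes the paraplegin subunit of a protease of the inner mitochondrial membrane, had 2 NMD transcripts, at chr16:89510538-89532570 (SPG7-210) and chr16:89531904-89554662 (SPG7-215), plus strand. SPG7-210 stood at 10.1, 5.82 and 5.47 FPKM in DMSO and 8.29, 5.12 and 6.64 in verteporfin. These groups overlapped, with a log2 fold change of -0.06 (-1.02 to 0.91; limma, adjusted p = 0.986) that turned positive under another scaling. SPG7-215 stood at 7.43, 4.01 and 2.77 FPKM in DMSO and 1.80, 2.38 and 1.65 in verteporfin. All verteporfin values were below all DMSO values, with a log2 fold change of -0.89 (-1.88 to 0.10; limma, adjusted p = 0.760). The shares of SPG7-215 in its gene overlapped, at 4.18% ± 1.90 with DMSO and 2.43% ± 1.23 with verteporfin (SD, n = 3 each).

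The other mitochondrial genes had NMD transcripts at lower levels. LARS2-208, of the mitochondrial leucyl-tRNA synthetase, ranged from 0.949 to 3.10 FPKM in DMSO and from 0.180 to 1.40 in verteporfin. DIABLO-212, of a mitochondrial protein that counters inhibitors of apoptosis, was listed at 6.80 FPKM in DMSO replicate 3 and 3.50 in verteporfin replicate 2 and at 0 in the other 4 libraries. RMND1-201, of a factor of mitochondrial translation, stood at 0, 0.0618 and 0.0301 FPKM in DMSO and 0.167, 1.61 and 0.229 in verteporfin; it did not overlap between groups and was under the minimum for the test. NDUFB9-206, ATP5MG-206 (a subunit of ATP synthase) and SERAC1-203 (a protein of phospholipid remodelling) each had 1 or more DMSO libraries at 0.

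Genes of translation held 4, which summed to 11.1, 10.7 and 13.6 FPKM in DMSO and 28.5, 12.0 and 24.2 in verteporfin. RPL11-204 (chr1:23691821-23696425, plus strand) stood at 8.58, 9.58 and 10.3 FPKM in DMSO and 10.1, 7.21 and 18.2 in verteporfin, so only verteporfin replicate 3 was clearly above the DMSO range. Its log2 fold change was 0.20 (-0.81 to 1.22; limma, adjusted p = 0.948). It made up 2.34% ± 0.486 of RPL11 with DMSO and 2.21% ± 1.28 with verteporfin (SD, n = 3 each). The main protein-coding transcript, RPL11-201, stood at 242, 421 and 310 FPKM in DMSO and 443, 558 and 467 in verteporfin, with no overlap and an adjusted p of 0.759.

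RPS24-209 (chr10:78033877-78054676, plus strand), from a gene of the small ribosomal subunit, was listed at 0 in all DMSO libraries and at 14.7, 2.82 and 0 FPKM in verteporfin. No fold change is given against a group listed at 0, and the limma test did not pass (unadjusted p = 0.0538, adjusted p = 0.759). A pair of protein-coding transcripts of RPS24 was also under 1 FPKM in every DMSO library, but highest in verteporfin replicate 2, where RPS24-209 was highest in replicate 1. RPS24-214 stood at 0.626, 0.281 and 0 FPKM in DMSO and 8.31, 16.4 and 0.0271 in verteporfin, and RPS24-204 at 0.245, 0.191 and 0 in DMSO and 3.28, 14.9 and 0.315 in verteporfin, without overlap for RPS24-204. The most abundant transcript of the gene, the processed transcript RPS24-212, stood at 142 to 195 FPKM in DMSO and 123 to 230 in verteporfin. EIF2B5-213, from the gene of the catalytic subunit of the initiation factor eIF2B, stood at 2.06, 0.287 and 2.72 FPKM in DMSO and 3.47, 1.70 and 5.22 in verteporfin, with overlap. DDX3X-206, from an RNA helicase gene, stayed between 0.269 and 0.798 FPKM.

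The transcripts known only by clone names included the most abundant NMD transcript of all. AC093323.1-204 stood at 20.8, 23.3 and 27.7 FPKM in DMSO and 9.38, 6.70 and 12.0 in verteporfin. The 2 groups were well apart, with a log2 fold change of -1.29 (-2.20 to -0.38; limma, unadjusted p = 0.0112, adjusted p = 0.658). Its share of the gene overlapped between groups, at 79.9%, 77.9% and 45.7% in DMSO and 44.8%, 51.5% and 64.9% in verteporfin. The whole gene stood at 26.1, 29.9 and 60.7 FPKM in DMSO and 20.9, 13.0 and 18.5 in verteporfin, a log2 fold change of -1.03 (-1.84 to -0.23; limma over genes, adjusted p = 0.456). AC093323.1-202 (chr4:6673451-6676047, plus strand) was at 1.87, 2.70 and 10.7 FPKM in DMSO and 3.81, 3.10 and 3.14 in verteporfin. DMSO replicate 3 stood out there, and also in the protein-coding AC093323.1-203, at 22.2 FPKM against 3.22 to 7.75 in the other 5 libraries.

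AC015813.2-201 (chr17:57989038-58007246, minus strand) was the only listed transcript of its gene, at 0.967, 0 and 0 FPKM in DMSO and 1.24, 3.47 and 2.13 in verteporfin. It was named after its values were seen, for its unadjusted p of 0.0175 in limma. The adjusted p was 0.716 and the log2 fold change 1.33 (0.30 to 2.36). AC015813.2-201 was listed through verteporfin alone, with means of 0.322 FPKM in DMSO and 2.28 in verteporfin. Its direction, p and interval follow in part from that listing. AC093668.2-201 was at 1.42, 1.21 and 0.641 FPKM in DMSO and 13.3, 0.993 and 1.96 in verteporfin, where replicate 1 alone lay far above the rest. AL031847.2-201 ranged from 0 to 2.79 FPKM in DMSO and from 0.609 to 2.54 in verteporfin.

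**Figure D5:**
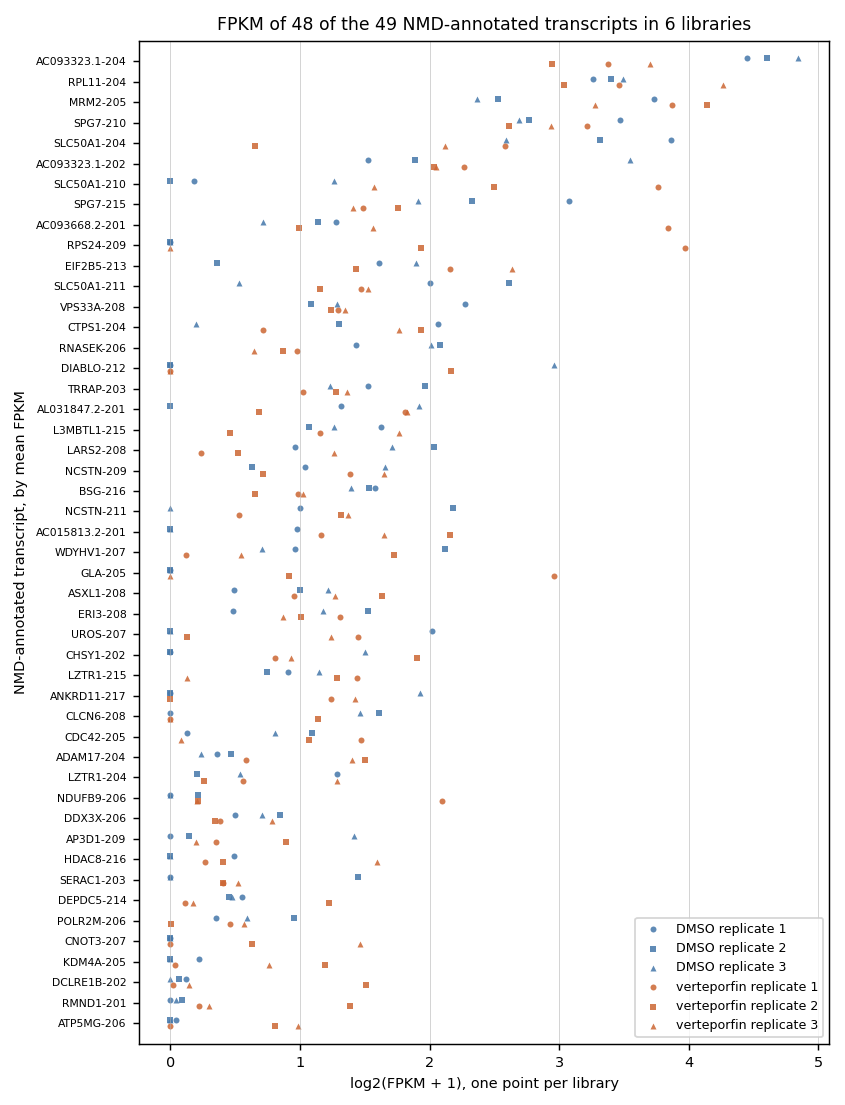
Level of 48 of the 49 NMD transcripts in every library, as log2(FPKM + 1), ordered from the highest mean (top) to the lowest; blue points are DMSO, orange points verteporfin, and the marker gives the replicate. Most transcripts lie under 2 on this scale with blue and orange points mixed, and AC093323.1-204 at the top has its 3 blue points to the right of its 3 orange ones.

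The remaining groups held transcripts of low level. Of 5 transcripts from genes of nucleic acid and protein processing, RNASEK-206 (chr17:7013231-7014520, plus strand), of the ribonuclease kappa gene, stood at 1.70, 3.24 and 3.04 FPKM in DMSO and 0.967, 0.827 and 0.566 in verteporfin. It too was named after its values were seen, with no overlap between groups and a log2 fold change of -1.01 (-1.87 to -0.16; limma, unadjusted p = 0.0260, adjusted p = 0.759). As a share of RNASEK it overlapped, at 34.5% ± 30.7 with DMSO and 19.0% ± 2.51 with verteporfin (SD, n = 3 each). The whole RNASEK gene had a log2 fold change of -1.07 (-2.19 to 0.04). ERI3-208, of an exoribonuclease gene, ranged from 0.400 to 1.88 FPKM in DMSO and from 0.828 to 1.47 in verteporfin, and DCLRE1B-202, of the telomere nuclease Apollo, was at 0 to 0.0895 FPKM in DMSO and at 0.0150, 1.85 and 0.107 in verteporfin. CNOT3-207, of a subunit of the CCR4-NOT deadenylase, was listed at 0 in all DMSO libraries and at 0, 0.549 and 1.76 FPKM in verteporfin.

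Genes of chromatin and transcription held 7, among them TRRAP-203, of a scaffold of histone acetyltransferase complexes, and ASXL1-208, of a Polycomb-associated protein; the others came from L3MBTL1, ANKRD11, HDAC8 (a histone deacetylase), KDM4A (a histone demethylase) and POLR2M. Their means were 0.363 to 1.69 FPKM, 4 had a higher and 3 a lower mean with verteporfin, and none of the 4 tested had an unadjusted p under 0.05. Genes of the lysosome and of membrane traffic held 4, with means of 0.510 to 1.79 FPKM. Of these, GLA-205, from the gene of alpha-galactosidase A, was listed at 0 in all DMSO libraries and at 6.78, 0.886 and 0 FPKM in verteporfin, while VPS33A-208, of a vesicle tethering complex, stood at 1.13 to 3.84 FPKM in DMSO and 1.36 to 1.54 in verteporfin. The 3 described from genes of synthesis enzymes had means of 1.04 to 1.77 FPKM and the 4 from signalling genes 0.462 to 1.00, and none of the 6 tested in these groups had an unadjusted p under 0.05. The synthesis enzymes were CTPS1 of CTP synthesis, UROS of heme synthesis and CHSY1 of chondroitin synthesis. The signalling genes were CDC42, DEPDC5, a subunit of the GATOR1 complex upstream of mTORC1, and LZTR1, an adaptor for degradation of RAS proteins.

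Taking all 49, 28 were above 0 in every library. Of those listed at 0 throughout 1 group, 3 were at 0 in all DMSO libraries (RPS24-209, GLA-205 and CNOT3-207) and 0 in all verteporfin libraries. The 3 were listed through verteporfin alone, as were 13 of the 49 against 5 through DMSO alone, so the 3 against 0 follows in part from how transcripts were listed and is no result about the groups. Transcripts of abundant genes were among those listed at 0, so a 0 here is not read as absence.

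Genes that carry out NMD were described by FPKM summed per gene, a test added after the data were seen. Of 22 NMD factors 0 were called, beside 0.0154% of all 12952 genes tested, 16 had a log2 fold change above 0 and 6 below, and the median was 0.07, beside 0.0074 over all genes. An unadjusted p under 0.05 was found for 1 of the 22, beside 8.84% of all genes. That was XRN1, the exonuclease that degrades decapped RNA, at 3.39, 5.24 and 3.01 FPKM in DMSO and 6.01, 13.7 and 12.4 in verteporfin. The groups did not overlap, and the log2 fold change was 1.22 (0.36 to 2.08; limma, adjusted p = 0.424). UPF1 itself stood at 83.3, 60.2 and 87.7 FPKM in DMSO and 69.3, 46.9 and 63.6 in verteporfin, with overlap and an adjusted p of 0.746. Of 11 genes of the exon junction complex 0 were called and 0 had an unadjusted p under 0.05, with a median log2 fold change of -0.13. Groups did not overlap for 4 of the 11, all lower with verteporfin (RBM8A, ACIN1, PYM1 and ALYREF), beside 7.74% of all genes lower without overlap. Among the 22 NMD factors 1 was higher without overlap, XRN1, beside 6.49% of all genes, and 1 lower, DHX34, a helicase. ALYREF, an RNA export adaptor, stood at 422, 242 and 411 FPKM in DMSO and 232, 219 and 221 in verteporfin, without overlap and with an adjusted p of 0.565.

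Genes known for NMD-sensitive transcripts were mostly without a listed NMD transcript. Over all 12952 genes 0.0154% were called and 8.84% had an unadjusted p under 0.05. Of 41 splicing regulators tested 0 were called in limma (2, or 4.88%, with an unadjusted p under 0.05) and 0 had an NMD transcript among the 49, and of 17 other known targets of NMD likewise 0 (2, or 11.8%, with an unadjusted p under 0.05) and 0. Of 82 ribosomal protein genes tested 0 were called in limma (2, or 2.44%, with an unadjusted p under 0.05), with a median log2 fold change of 0.23, and 2 had an NMD transcript, RPL11 and RPS24. Of 28 genes of the ATF4 response, some of whose messenger RNAs are known NMD targets, 2 were called, which were the 2 called over all genes, and 17 had an unadjusted p under 0.05 (60.7%, beside 8.84%). Of these 28, 26 had a log2 fold change above 0, with a median of 1.03, and 0 had an NMD transcript listed. The list was chosen with earlier results of these data known, so its counts are a description and say nothing about the 49 transcripts. The 2 calls became 0 with equal medians, other pseudocounts or no variance trend. Markers of B-cell precursors were present for 13 of 14 genes, summing to 1696 to 2035 FPKM in DMSO and 1321 to 2142 in verteporfin, with CD24 not listed. Of 12 markers of other cell types 2 were listed, NKG7 at 0 to 1.62 FPKM and LYZ at 1.33 to 2.56.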

How the data were processed

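RNA-seq was made from total RNA with a stranded KAPA kit, per the labels. The deposited values are FPKM per Ensembl transcript, computed by the authors. Per the submitters' processing notes the tools included StringTie 1.3.3, HISAT2 2.1.0, edgeR, STAR, cutadapt and FastQC, in roles not given, with hg18 as the build; most transcript identifiers, however, have the suffix of GENCODE annotation carried over to GRCh37. The build behind the values is thus uncertain, and coordinates and sequences printed are those of GENCODE 29 on GRCh38. Read depth is unknown, since no read counts were used, so precision rests on the spread between libraries.

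Transcripts were matched to GENCODE 29 by identifier without version (61975 matched, 275 did not). Later entries of the table, 4765 whole numbers (tolerance 0) under 2939 repeated identifiers, are not FPKM and entered no test. A share is a transcript's FPKM over the summed FPKM of its gene's listed transcripts. Tests used limma 3.58.1 (eBayes, 2-sided) in R 4.3.3, fitted on all transcripts with Benjamini-Hochberg adjustment and a threshold of 0.05. Levels were log2(FPKM + 1) with a variance trend and a mean of at least 0.5 FPKM; this scale understates fold changes of low transcripts. Shares were arcsine square roots without a trend, for transcripts with a mean of at least 0.5 FPKM. Their genes needed at least 2 listed transcripts and a sum of at least 1 FPKM in every library. Ratios were log2((NMD + 1)/(protein-coding + 1)) for genes with a mean sum of at least 1 FPKM. Gene-level fits were added after the data were seen. Library totals were compared with exact permutation tests. Intervals are 95%. The fits were tested on simulated data. For single transcripts, shifts were put only into those of higher level than most NMD transcripts here. Detection of shifts at the level of most NMD transcripts was therefore not tested. Tables and figures were made in Python 3.11.15 with scipy 1.17.1, matplotlib 3.10.9, pandas 2.3.3 and numpy 2.4.6.

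Named transcripts were the 8 with the highest mean; those whose mean reached 5 FPKM with non-overlapping levels; those with non-overlapping shares in genes of at least 5 FPKM in every library; any past the threshold; and those of listed genes. The values of 1 transcript and the sequences of MRM2 are not reported here. Others were named for their role or chosen after their values were seen. Members, gene lists and role groups were chosen with earlier results of these data known. Alternatives were other minimums, pseudocounts, scalings and share scales, a replicate block, and leaving out each library.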

Additional observations from a re-analysis of the deposited data

Results flagged for a closer look

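The whole-number entries, which the comparisons do not use, hold 279 entries under 178 NMD-annotated identifiers (5.86% of 4765 entries), and 1 of these identifiers is among the 49 transcripts. Their sums were larger in every verteporfin library, at 317, 469 and 288, than in any DMSO library, at 182, 158 and 86. All whole-number entries together summed to 5883, 9562 and 5130 with verteporfin and 3273, 2719 and 2071 with DMSO. As a share of those sums, the entries under NMD identifiers made up 5.39%, 4.91% and 5.61% with verteporfin and 5.56%, 5.81% and 4.15% with DMSO, which overlap. What these entries count is not given in the sources used here, and the difference was not tested.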

How the results depend on the processing

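The counts of 0 called NMD transcripts, shares and ratios, and of 0 called NMD factor and exon junction complex genes, stayed 0 under every alternative run for them. The values that changed sign are these. The log2 fold change of SPG7-210 was 0.054 with equal medians, 0.023 with quantile normalization and -0.21 to 0.19 leaving out 1 library in turn; leaving out 1 library also gave -0.13 to 0.48 for RPL11-204 (negative without verteporfin replicate 3) and -0.60 to 0.41 for AC093323.1-202 (positive without DMSO replicate 3). The difference in the NMD share of all FPKM, -9.06e-05 percentage points, was 0.000911 without the 10 most abundant NMD transcripts and -0.00187 to 0.000818 leaving out 1 library; that in the share of the genes' FPKM, -0.101 points, was 0.13 and -1.01 to 0.632. The cause was not tested. Over all transcripts, the 17 calls became 7 with a minimum of 5 FPKM, 10 with a pseudocount of 0.01 and 0 without any 1 library; the 10 calls of shares became 0 with a minimum of 5 FPKM, 0 to 3 without 1 library, 5 on the raw share and 63 on the logit; and the 2 calls of genes became 0 with equal medians, other pseudocounts or no trend and 0 to 12 without 1 library. With the replicate number as a block, 0 NMD transcripts were called, and over all features 0 transcripts, 0 shares and 84 genes. Genes with an unadjusted p under 0.05 in limma numbered 2291 with the block and 1145 without it. Deviations from group means over 55388 transcripts correlated at 0.132, 0.233 and 0.0356 between same-numbered libraries. Between libraries of different number they correlated at -0.176 to 0.056. The labels do not say that the numbers mark pairs, so the main fits did not use them, and whether they mark pairs is not settled. No setting that needs read counts was tried on FPKM, and with 3 libraries per group and low FPKM, intervals of single NMD transcripts often span more than 2 on the log2 scale.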

Other observations

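Retained-intron transcripts of the 43 genes, which were in no comparison above, took 15.2%, 17.7% and 14.0% of the genes' FPKM in the DMSO libraries and 12.8%, 13.4% and 13.3% in the verteporfin libraries. All 3 verteporfin values lay below all 3 DMSO values, and the difference was not tested. RPL11 weighs heavily in these shares. Its listed transcripts summed to 334, 539 and 386 FPKM with DMSO and 520, 660 and 505 with verteporfin. With RPL11 taken out of the sums, the retained-intron shares of the 2 groups overlapped. In RPL11 the retained-intron transcript RPL11-205 stood at 29.8, 70.8 and 28.6 FPKM with DMSO and 15.3, 25.4 and 2.70 with verteporfin. Its groups did not overlap, with a log2 fold change of -1.79 and an adjusted p of 0.759 in limma, beside RPL11-204, the NMD transcript of the same gene, whose groups overlapped. Processed transcripts took 14.3%, 13.9% and 16.2% of the genes' FPKM with DMSO and 11.1%, 12.9% and 16.4% with verteporfin, which overlap.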
